A study of Mus musculus with 77 samples.

Results

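The arrays described here hold the RNA bound to Sertoli cell ribosomes in mouse testes, labelled 4h after an injection of retinoic acid (RA), set against the same RNA at time 0. They are 4 of the 77 arrays of the series, 2 labelled 4h and 2 at time 0, and were chosen by their labels alone. The mice carry RiboTag, an allele that puts an epitope tag on a ribosomal protein where Cre recombinase has acted, so that tagged polysomes can be immunoprecipitated (IP) with their RNA. In the Amh-cre line, Cre is driven by the promoter of the anti-Müllerian hormone gene and the tag marks Sertoli cells, while Stra8-cre and Ngn3-cre mark germ cells. All animals, those of time 0 included, had received BDAD, an inhibitor of RA synthesis, for 9 days; the animals' age is not given in the sources used here.

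Amh-cre and Stra8-cre animals were of strain FVB/N and Ngn3-cre animals of C57BL/6. The Amh IP series has 2 arrays at each of 8 labelled times, from time 0 to 8d. Amh total RNA (whole testis) at 4h was not analysed here. No array came from animals left for the same time without RA, so the effects of RA, of the injection, of the end of BDAD and of age cannot be told apart. The labels number the replicates but do not say whether each was another animal. The SE and p-values below rest on a spread pooled within the groups of all 77 arrays, not on the arrays compared alone. They measure only that spread, which may be technical.

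Sertoli cells are the somatic cells of the seminiferous tubule that surround and feed the germ cells. They divide in fetal and neonatal life, leave the cell cycle before puberty and then form tight junctions, pump fluid and supply lactate. RA is made from retinol by retinol and retinaldehyde dehydrogenases, is broken down by CYP26 enzymes, and acts through RAR and RXR receptors on DNA. Genes with a receptor site near their start, such as Rarb and Cyp26a1, are among the first to respond.

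The IP arrays carried the RNA of the cell type on their label. Sox9, the transcription factor of Sertoli identity, read 13.04 and 12.98 at time 0 and 13.05 and 13.07 in the arrays labelled 4h (log2 of the deposited RMA intensity, the unit of all levels and differences below). Wt1, a transcription factor that Sertoli cells need, read 12.60 and 12.48, then 12.56 and 12.66, and Amh itself 12.86 and 12.89, then 12.82 and 12.86. These Sertoli cell genes stood at nearly the same height in both groups. At time 0 the 9 Sertoli markers checked were higher in IP than in total RNA by 0.31 to 0.99, while Ddx4, a germ cell RNA helicase, differed by -2.19 and Cd34 of endothelium by -2.55. Array medians lay between 266.4 and 269.7 intensity units for the 4 arrays, within the 252.6 to 300.5 of all 77.

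The label 4h does not go with what the germ cell lines show at 4h, and this bears on every result. Rarb, which encodes an RA receptor and is itself an RA target, stood at 7.18 and 7.16 in the Amh IP arrays labelled 4h, against 7.07 and 7.02 at time 0. It stood at 9.28 and 9.21 in the Stra8 IP arrays labelled 4h and at 9.04 and 9.05 in those of the Ngn3 line. Among the Amh IP arrays the highest Rarb levels, 8.58 and 8.56, lay at the label 4d. Amh total RNA labelled 4d also had high Rarb, 8.88 and 8.82 against 6.84 and 6.90 at time 0. An exchange of the labels 4h and 4d in this line is possible, and the same pattern stands in both fractions labelled 4d. The sources used here say no more than the labels do on when these animals were killed, and whether labels were exchanged was not tested. Results are therefore given as "labelled 4h", with the values of the arrays labelled 4d beside many of them, though not all.

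Promoters of 5 genes are shown because the results turn on them: 3 genes of dividing cells that were low in the arrays labelled 4h, and 2 RA targets that were not called there. Each runs 5′ to 3′ from 250 bases before the start of the gene to 20 bases after it, from RefSeq on build GRCm38.p6. For Ccnb2 (chr9:70421535-70421804, minus strand), Top2a (chr11:99024170-99024439, minus strand) and Mki67 (chr7:135716360-135716629, minus strand), capitals mark each TTTGAA, the core of the CHR element of cell cycle promoters, and each CCAAT, the box bound by NF-Y, on either strand (TTCAAA and ATTGG are the same motifs read on the other strand). For Rarb (chr14:16575457-16575726, minus strand) and Cyp26a1 (chr19:37697558-37697827, plus strand), capitals mark the DR5 element, a direct repeat of the site that RA receptors bind.
Ccnb2: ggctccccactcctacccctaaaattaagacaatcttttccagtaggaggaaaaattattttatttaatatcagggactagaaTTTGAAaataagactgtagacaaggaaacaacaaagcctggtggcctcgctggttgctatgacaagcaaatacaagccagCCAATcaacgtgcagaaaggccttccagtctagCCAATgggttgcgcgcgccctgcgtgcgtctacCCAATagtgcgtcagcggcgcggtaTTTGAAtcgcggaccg
Top2a: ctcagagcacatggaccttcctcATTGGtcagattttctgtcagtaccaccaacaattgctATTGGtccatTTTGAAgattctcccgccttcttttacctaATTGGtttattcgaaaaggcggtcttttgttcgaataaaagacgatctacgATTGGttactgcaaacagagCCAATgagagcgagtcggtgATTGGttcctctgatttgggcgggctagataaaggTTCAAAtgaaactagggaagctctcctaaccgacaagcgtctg
Mki67: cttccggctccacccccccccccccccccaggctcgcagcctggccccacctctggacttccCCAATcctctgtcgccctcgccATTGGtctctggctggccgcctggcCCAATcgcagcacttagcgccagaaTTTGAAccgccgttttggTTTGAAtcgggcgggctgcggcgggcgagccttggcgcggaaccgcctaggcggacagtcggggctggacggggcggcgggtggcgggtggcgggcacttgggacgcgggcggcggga
Rarb: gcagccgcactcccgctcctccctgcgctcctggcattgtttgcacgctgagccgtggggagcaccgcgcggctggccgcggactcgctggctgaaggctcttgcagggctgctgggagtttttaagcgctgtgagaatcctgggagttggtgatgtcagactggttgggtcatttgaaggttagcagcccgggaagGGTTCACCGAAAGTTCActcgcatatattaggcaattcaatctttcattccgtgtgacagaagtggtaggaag
Cyp26a1: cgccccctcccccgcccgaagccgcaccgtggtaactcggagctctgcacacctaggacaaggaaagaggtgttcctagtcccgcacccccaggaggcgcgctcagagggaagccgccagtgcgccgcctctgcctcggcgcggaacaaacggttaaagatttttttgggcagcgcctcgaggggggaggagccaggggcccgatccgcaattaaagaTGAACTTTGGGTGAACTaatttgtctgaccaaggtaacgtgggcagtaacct

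The CHR core was matched 2 times each in the Ccnb2, Top2a and Mki67 promoters, and CCAAT 3, 6 and 3 times. The DR5 element began 53 bases before the start of Rarb and, on the other strand, 32 bases before the start of Cyp26a1. Rarb also held 1 CHR core, left in lower case, and 0 matches overlapped another motif in these promoters. Windows of 300 bases (250 before to 50 after the start) were searched for all genes on both strands. Of the 36 measured genes of mitosis and mitotic kinesins described below, 31 were matched to a promoter by symbol, and 23 of these (74.2%) held the CHR core, 22 (71%) held CCAAT and 0 held DR5. Over all 27025 genes the shares were 20.2%, 41.1% and 0.115% (17.9%, 37.4% and 0.0974% of 32851 promoters). Of 20 RA-induced targets, 15 were matched and 2 held DR5, both shown above. Of these 15, 4 (26.7%) held the CHR core and 9 (60%) held CCAAT. A match is a description of letters, not a site shown to be bound.

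Genes that carry a cell through mitosis were lower in the arrays labelled 4h than at time 0. Of 19938 genes tested, 124 (0.622%) were higher and 263 (1.32%) lower (called at limma adjusted p under 0.05 and at least 2-fold). Of 25 measured mitosis genes 22 fell and 0 rose, with a median difference of -1.76, and of 11 kinesins of mitosis 9 fell and 0 rose, with a median of -1.57. The median over all genes was 0.07. Fewer dividing cells and less of these RNAs per cell cannot be told apart in bulk RNA, nor can a change in the amount of RNA be told apart from a change in how much of it sits on ribosomes.

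Among the cyclins, which drive the cell cycle kinases, Ccnb2 stood at 12.04 and 11.98 at time 0 and at 8.77 and 8.76 in the arrays labelled 4h, a 9.47-fold fall (-3.24 ± 0.15, SE; limma adjusted p = 6.95e-22). Ccna2 went from 11.69 and 11.53 to 9.25 and 9.28 (-2.35 ± 0.13, adjusted p = 1.29e-19). Both cyclins met a naming rule that asked for no overlap between the groups, so the gap between the groups follows in part from the choice. Their partner kinase Cdk1 read 11.37 and 11.31 at time 0 and 10.83 and 10.52 at the label 4h (-0.66 ± 0.20, adjusted p = 0.0168), short of the 2-fold minimum.

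Plk1 and Aurkb, kinases of mitosis, fell with the cyclins. Plk1, which acts in spindle assembly, was at 11.32 and 11.18 and then at 9.05 and 9.05 (-2.20 ± 0.26, adjusted p = 1.28e-08). Aurkb, the kinase that corrects chromosome attachment, was at 11.19 and 11.12 and then at 9.05 and 9.13 (-2.06 ± 0.13, adjusted p = 6.53e-17). In the arrays labelled 4d neither was called against time 0, with Plk1 at 10.77 and 11.13 and Aurkb at 10.48 and 10.79.

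Top2a, the topoisomerase that untangles sister chromosomes, was at 11.10 and 10.97 at time 0 and at 8.92 and 8.84 in the arrays labelled 4h (4.46-fold lower, -2.16 ± 0.16, adjusted p = 2.31e-14). Mki67, a protein of mitotic chromosomes that marks cycling cells, was at 11.25 and 11.05 and then at 9.06 and 8.96 (-2.14 ± 0.21, adjusted p = 7.68e-11). The condensin subunit Ncapg (-2.33 ± 0.19) and Anln, a scaffold of the cleavage furrow (-2.16 ± 0.17), fell as well, and Depdc1a fell 8.86-fold, from 9.51 and 9.24 to 6.29 and 6.17. In each of these 5 genes the arrays of both groups were well apart. All but Mki67 met a naming rule that asked for no overlap between the arrays, so for them this follows from the choice.

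Of the kinesins, motors that build and move the spindle, Kif11, which pushes the spindle poles apart, fell from 10.84 and 10.67 to 8.67 and 8.53 (-2.15 ± 0.19, adjusted p = 1.93e-12). Kif18b (-1.98 ± 0.17), Kif4 (-1.85 ± 0.26), Kif20a (-1.67 ± 0.20), Kif2c (-1.62 ± 0.21) and Kif18a (-1.57 ± 0.21) fell too. The 5 members of both lists that were not called were Cenpf (-0.93), Kif20b (-0.80), Cdk1 (-0.66), Kif23 (-0.54) and Tpx2 (0.41); apart from Cdk1 they are named after their values were seen. Tpx2, a spindle assembly factor, was the member above 0. Averaged over the 25 genes, mitosis read 10.35 and 10.23 at time 0, 8.68 and 8.66 in the arrays labelled 4h, and 9.77 and 9.96 in those labelled 4d.

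**Figure D1:**
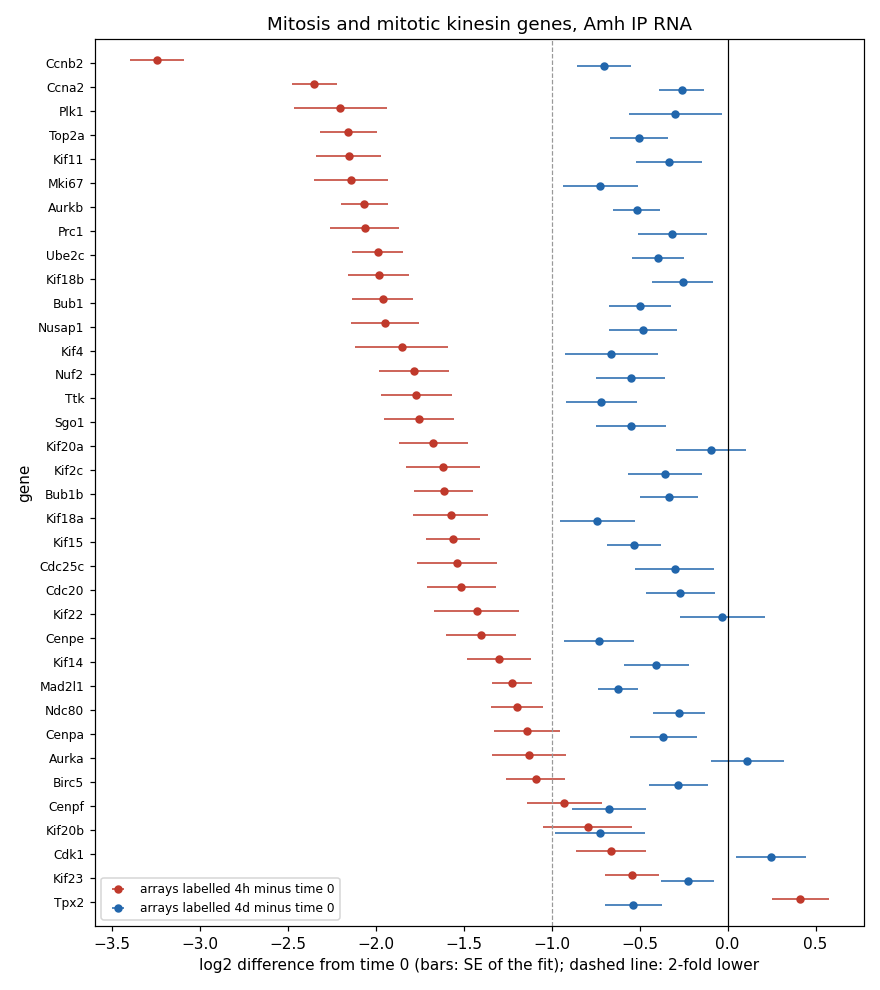
Log2 difference from time 0 in Amh IP RNA for the 36 measured genes of mitosis and mitotic kinesins, with the SE of the fit as bars; red points are the arrays labelled 4h, blue points those labelled 4d, and the dashed line is a 2-fold fall. Of the red points 31 were called lower, led by Ccnb2 at -3.24, and all blue points lie right of the dashed line.

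DNA replication genes lay lower too, by smaller differences. Of 26 measured members 2 fell and 0 rose, 25 lay below 0, and 14 passed the adjusted p without the 2-fold minimum (median -0.50). Over all 19938 genes, 7542 lay below 0 and 3047 (15.3%) passed the adjusted p alone. Those called were Rrm2, the regulated subunit of the enzyme that makes deoxynucleotides (9.35 and 9.43, then 8.36 and 8.16; -1.13 ± 0.29, adjusted p = 0.00383), and Uhrf1, which helps copy DNA methylation to new strands (9.38 and 9.42, then 8.37 and 8.42; -1.01 ± 0.22, adjusted p = 0.000777). Uhrf1 lost its call with median centring (-0.97) and quantile normalization (-0.85), and Rrm2 with the latter (-0.98). Leaving out 1 array also ended calls: Rrm2 had an adjusted p of 0.0614 without replicate 2 labelled 4h, and Uhrf1 missed the 2-fold minimum without replicate 1 labelled 4h (-0.98) or replicate 2 of time 0 (-0.99).

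Histone genes that are expressed while DNA is copied fell for 4 of 5 measured members (median -1.93). H2ac4 went from 9.40 and 9.24 to 6.97 and 6.55 (-2.56 ± 0.37, adjusted p = 1.08e-06) and the linker histone H1f1 from 11.92 and 11.96 to 9.88 and 9.98 (-2.01 ± 0.19). H2bc3 (-1.93 ± 0.16) and the linker histone H1f5 (-1.46 ± 0.26) fell too. These genes have near-identical copies, so a probe set may read more than its own gene.

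Of 9 measured D cyclins and inhibitors of the cell cycle kinases, 2 rose and 1 fell. Ccnd1, the cyclin of early cycle entry, rose from 8.74 and 8.67 to 9.96 and 9.86 (1.20 ± 0.29, adjusted p = 0.00272). Cdkn2b, an inhibitor of the kinases that D cyclins activate, rose from 8.41 and 8.50 to 9.69 and 9.49 (1.14 ± 0.20, adjusted p = 3.27e-05), while Cdkn2c of the same inhibitor family fell from 10.32 and 10.27 to 8.97 and 8.94 (-1.34 ± 0.19). A cyclin and an inhibitor rose together, and the inhibitors Cdkn2b and Cdkn2c went opposite ways.

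**Figure D2:**
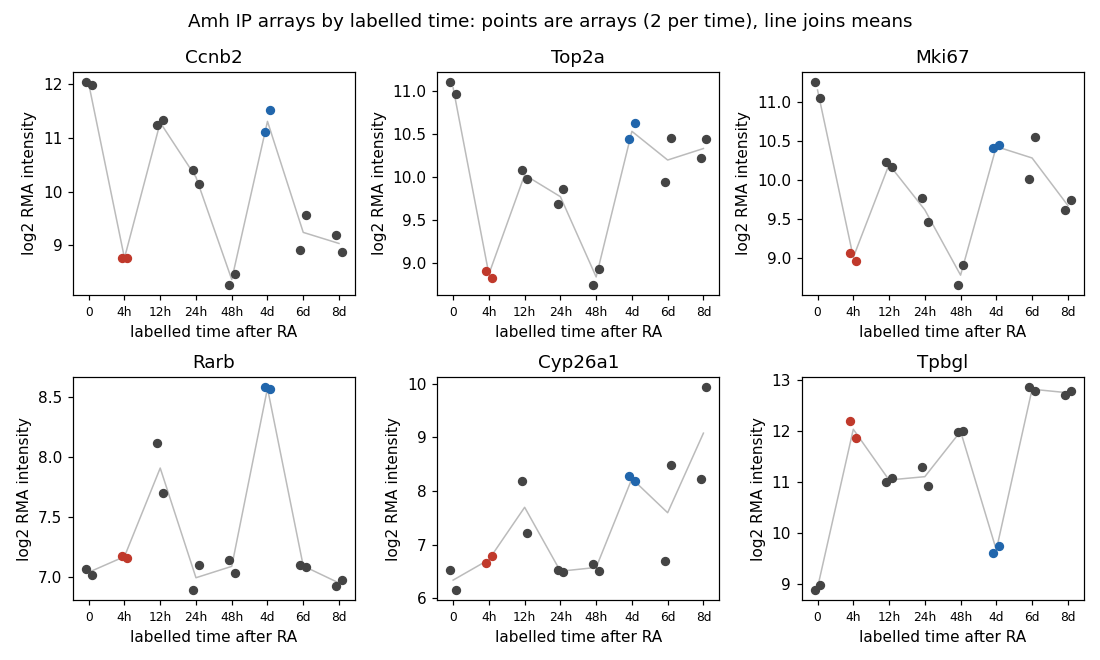
Log2 RMA intensity of 6 genes in each of the 16 Amh IP arrays by labelled time after RA (times are spaced evenly, not to scale; points are arrays, the line joins means; red, labelled 4h; blue, labelled 4d). Ccnb2, Top2a and Mki67 are lower at the label 4h than at 0 and at the label 4d, Rarb is highest at the label 4d (8.58 and 8.56), and Tpbgl is high at the label 4h (12.19 and 11.86) and low at 0 and 4d.

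Genes outside the cell cycle fell as well. Serpinf1, a secreted serpin that restrains vessel growth, went from 11.48 and 11.33 to 9.10 and 9.16 (4.84-fold lower, -2.28 ± 0.25, adjusted p = 1.71e-09). Itm2a, a membrane protein, went from 9.93 and 9.78 to 7.47 and 7.52 (-2.36 ± 0.33), and Ifitm2, of the interferon-induced membrane proteins, from 11.61 and 11.54 to 9.24 and 9.54 (-2.18 ± 0.26). The arrays labelled 4d read 11.60 and 11.50 for Serpinf1 and 11.88 and 11.91 for Ifitm2, not below time 0. For Itm2a they read 9.35 and 9.31, below time 0 but not called (-0.52 ± 0.33). The growth factor Igf1 fell (9.26 and 9.27, then 8.22 and 8.11; -1.10 ± 0.22), the called member of 18 niche factors that Sertoli cells send to germ cells. Tubb2b fell too (-1.15 ± 0.20), the called member of 6 beta tubulins. Both missed the 2-fold minimum after quantile normalization (-0.97 and -0.99).

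The genes that rose included enzymes, transporters and membrane proteins. Car7, a carbonic anhydrase, rose 9.16-fold, from 8.49 and 8.43 to 11.86 and 11.45 (3.20 ± 0.44, adjusted p = 2.84e-07). Bbox1, the last enzyme of carnitine synthesis, rose from 6.40 and 6.39 to 9.41 and 8.88 (2.75 ± 0.25, adjusted p = 8.61e-12), and Gfpt2, which commits glucose to hexosamine synthesis, from 8.87 and 9.33 to 11.83 and 11.79 (2.71 ± 0.19, adjusted p = 1.12e-15). Each was higher in both arrays labelled 4h than in any array of time 0 or of the label 4d, which the rules that named these genes required.

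Tpbgl rose 8.60-fold, from 8.88 and 8.97 to 12.19 and 11.86 (3.10 ± 0.34, adjusted p = 1.43e-09). Tsx, an X-linked gene expressed in Sertoli cells, rose from 9.42 and 9.36 to 12.38 and 11.98 (2.79 ± 0.47, adjusted p = 1.59e-05). The water channel Aqp8 (2.46 ± 0.28), the organic anion transporter Slco1a5 (2.08 ± 0.22), the serine protease Corin (2.32 ± 0.29) and St8sia2, which adds polysialic acid to cell adhesion molecules (2.26 ± 0.27), rose too. So did Zfp536, a zinc finger protein (2.34 ± 0.21), and Sfn, a checkpoint adaptor (2.07 ± 0.21). At the label 4d, Aqp8 read 7.25 and 7.50 against 7.41 and 7.53 at time 0 and 10.23 and 9.63 at the label 4h, and Corin 8.93 and 8.93 against 8.77 and 8.93 and 11.33 and 11.01.

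**Figure D3:**
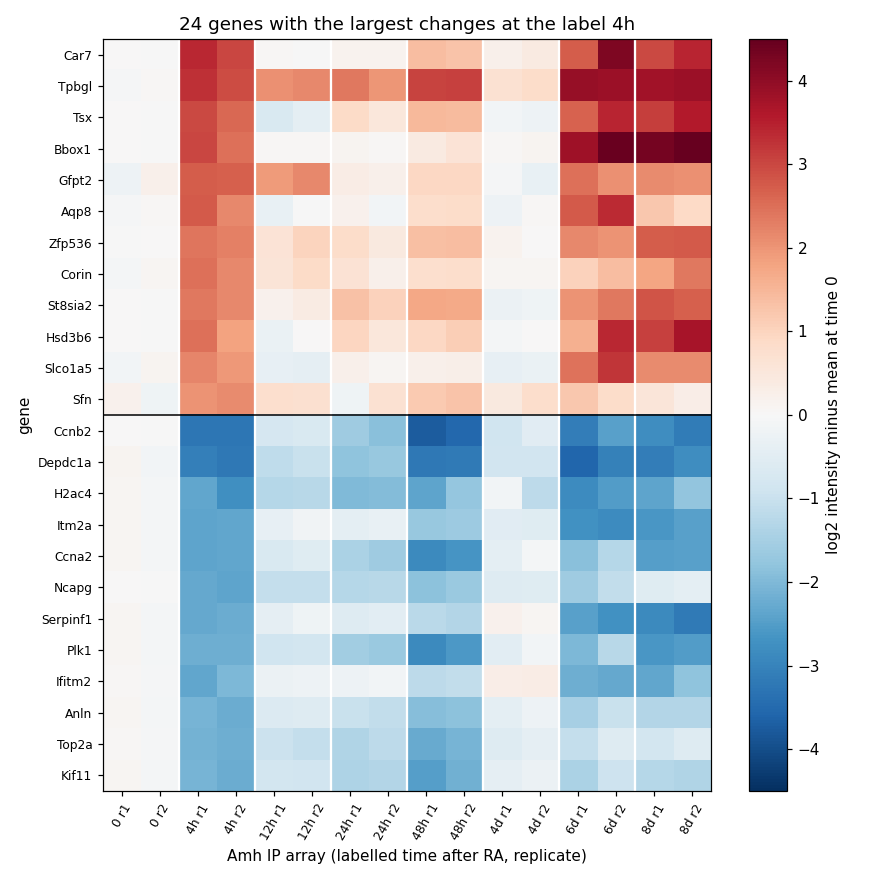
Log2 intensity minus the mean at time 0 for the 12 genes that rose most (above the line) and the 12 that fell most (below it) in the arrays labelled 4h, in each of the 16 Amh IP arrays ordered by labelled time. The genes were chosen on the columns labelled 0 and 4h, so the colours there follow from the choice; the columns labelled 4d are paler than those labelled 48h, 6d and 8d for most genes.

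Few genes of Sertoli identity and support were called. Of 27 measured Sertoli cell genes 1 rose (Tsx) and 0 fell, with a median of 0.05 against 0.07 for all genes. Gata1, a transcription factor that Sertoli cells gain after birth, read 10.79 and 10.83 at time 0 and 11.89 and 11.72 at the label 4h (0.99 ± 0.17, adjusted p = 2.94e-05), just short of 2-fold, and passed it with median centring (1.03). It read 11.87 and 11.95 in the arrays labelled 4d, above time 0 under both labels.

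Of 17 cell junction genes (median 0.17) and 12 genes of lactate supply and glucose uptake (median 0.34) limma called 0 each, with 5 and 8 at an unadjusted p under 0.05. Over all 19938 genes 5447 had such a p at the label 4h. That is the background for these counts and for later ones of the kind at the label 4h in Amh IP RNA. For other comparisons against time 0 it was 4849 at the label 4d and 2111 at 24h in Amh IP RNA. In the germ cell lines it was 2403 for Stra8 IP and 1851 for Ngn3 IP at 4h. In the lactate list 11 of 12 members lay above 0, as did 12396 of all 19938 genes, and 7 passed the adjusted p alone. Of 7 hormone receptor genes 0 were called by limma and 2 had an unadjusted p under 0.05. Hes1, a target of Notch signalling, rose from 8.54 and 8.73 to 9.81 and 9.79 (1.16 ± 0.18, adjusted p = 3.27e-06), 1 of 16 genes of that pathway to be called.

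Lists of general cell responses held 0 called genes by limma in the arrays labelled 4h. These were 18 immediate early genes (4 at an unadjusted p under 0.05, median 0.05), 10 heat shock and unfolded protein genes (3, median 0.22), 11 genes of cholesterol synthesis (5, median -0.05) and 10 collagens (4, median -0.01).

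Markers of other cells, whose RNA can be carried through an IP, gave no single direction, and their part in the results was not tested. Of 19 germ cell and piRNA genes 0 were called by limma (10 at an unadjusted p under 0.05), with a mean level of 8.32 and 8.49 at time 0 and 8.18 and 8.13 at the label 4h. Ddx4 read 8.96 and 9.10, then 8.61 and 8.49, and Mael 9.81 and 9.88, then 9.18 and 9.07. Kit went the other way, from 7.88 and 7.96 to 8.95 and 8.74 (0.93, limma adjusted p = 0.0199), short of the 2-fold minimum. Dazl read 9.72 and 9.97, then 10.02 and 9.90, and Sycp3 7.02 and 7.20, then 7.08 and 6.97. Of 17 genes of undifferentiated spermatogonia, Utf1 rose (8.69 and 8.73, then 10.32 and 9.91; 1.41 ± 0.16) and so did Id4 (8.56 and 8.57, then 9.71 and 9.66; 1.12 ± 0.16), while 9 of the 17 lay below 0. Of 12 genes of differentiating spermatogonia, 24 of meiotic entry and 18 of pachytene cells and spermatids limma called 0, with 4, 3 and 2 at an unadjusted p under 0.05.

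Of 8 measured genes of Leydig cells and steroid synthesis, a list not limited to Leydig cell markers, 1 rose and 1 fell. Hsd3b6, of a family of near-identical hydroxysteroid dehydrogenases that a probe set may not separate, was at 7.08 and 7.07 and then at 9.54 and 8.88 (2.14 ± 0.67, adjusted p = 0.0222), and Hsd17b3, which makes testosterone, at 11.65 and 11.43 and then at 10.28 and 10.40 (-1.20 ± 0.41, adjusted p = 0.037). Both calls ended when any 1 of the 4 arrays was left out, with adjusted p from 0.053 to 0.202 and from 0.111 to 0.201. Cyp17a1, a defining Leydig cell enzyme, read 10.18 and 8.97 at time 0 and 8.37 and 9.02 at the label 4h, so its groups overlap. Of 12 endothelial genes Cdh5 fell (9.52 and 9.48, then 8.66 and 8.24; -1.05 ± 0.18), but missed the 2-fold minimum after quantile normalization (-0.89) and without replicate 2 labelled 4h (-0.83). Of 11 myoid, 13 macrophage and 3 erythroid genes limma called 0, with 1, 4 and 0 at an unadjusted p under 0.05. The mean of the macrophage list was 7.52 and 7.46 at time 0 and 7.83 and 7.77 at the label 4h.

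RA targets were not called in the arrays labelled 4h. Of 20 measured RA-induced targets limma called 0 and 4 had an unadjusted p under 0.05, with differences from -0.58 to 0.38 and a median of 0.15 against 0.07 for all genes. Rarb differed by 0.13 ± 0.25 (adjusted p = 0.802). Cyp26a1, which breaks down RA, read 6.53 and 6.15, then 6.66 and 6.79 (0.38 ± 0.43, adjusted p = 0.627), and Stra8, the RA target of germ cells, 7.04 and 7.08, then 7.37 and 6.94. The groups of Stra8 overlap, and those of Rarb and Cyp26a1 lie side by side without overlap. Cyp26b1, the RA-degrading enzyme of fetal Sertoli cells, differed by -0.41 ± 0.19 (adjusted p = 0.156).

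RA targets read high in the arrays labelled 4d, where 97 genes (0.487%) were higher and 91 (0.456%) lower than at time 0. Of the 20 targets 6 rose there and 0 fell. Rdh10, a retinol dehydrogenase, read 12.44 and 12.48 against 9.02 and 9.31 at time 0 and 9.48 and 8.45 at the label 4h. Tgm2, a transglutaminase, read 11.32 and 11.19 against 8.81 and 9.13 and 9.48 and 9.06, and Dhrs3, which turns retinaldehyde back to retinol, 9.53 and 9.74 against 8.29 and 8.39 and 8.57 and 8.49. Cyp26a1 (1.89 ± 0.43), Rarb (1.53 ± 0.25) and Lrat, which stores retinol as ester (1.47 ± 0.32), were the others that rose at the label 4d. Of the mitosis and kinesin genes limma called 0 of 25 and 0 of 11 there (15 and 5 at an unadjusted p under 0.05), with medians of -0.48 and -0.36.

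**Figure D4:**
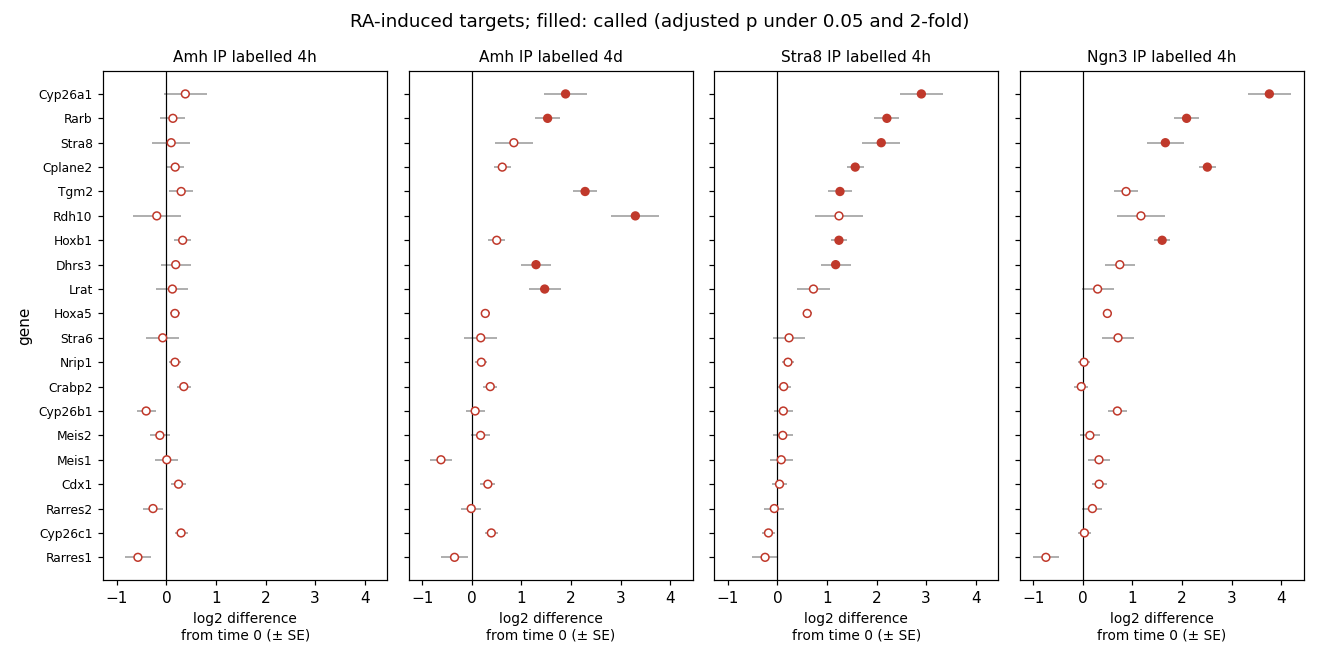
Log2 difference from time 0 (± SE) of the 20 measured RA-induced targets in 4 panels: Amh IP labelled 4h, Amh IP labelled 4d, Stra8 IP labelled 4h and Ngn3 IP labelled 4h; filled points were called. The first panel holds 0 filled points and the others 6, 7 and 5.

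Of the other genes of the RA pathway, limma called 0 of 6 receptor genes in the arrays labelled 4h (1 at an unadjusted p under 0.05; differences from -0.18 to 0.27). Of 14 genes of synthesis, storage and transport 1 rose, Crabp1, which binds RA in the cytoplasm (8.88 and 8.92, then 10.11 and 9.93; 1.12 ± 0.31, adjusted p = 0.00993). It lost its call without either array of time 0 (adjusted p = 0.0718 and 0.0635) or without replicate 1 labelled 4h (0.104). It read 9.01 and 8.91 at the label 4d. Aldh1a2, a retinaldehyde dehydrogenase, was at 0.37 ± 0.13 (adjusted p = 0.0417) and below the 2-fold minimum, and Rbp4, the retinol carrier, at 0.70 ± 0.31 (adjusted p = 0.125).

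Set directly against each other, the arrays labelled 4h were higher than those labelled 4d for 262 genes (1.31%) and lower for 242 (1.21%). Of the mitosis list 17 of 25 genes and of the kinesins 7 of 11 were lower at the label 4h (medians -1.24 and -1.19), and of the RA-induced targets 6 of 20 were lower and 0 higher. Rdh10 was 11.3-fold lower at the label 4h (-3.49 ± 0.49, adjusted p = 3.23e-07). Tgm2 (-1.99 ± 0.25), Rarb (-1.40 ± 0.25, adjusted p = 5.02e-05) and Ccnb2 (-2.54 ± 0.15) were lower there too. Of the 14 genes of RA synthesis, storage and transport 2 were lower and 1, Crabp1, higher (1.05 ± 0.31), with a median of 0.00.

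Among the others lower at the label 4h were Lgals1, a galectin (10.69 and 10.16 against 13.29 and 13.21 at the label 4d; -2.83 ± 0.27), and Capn2, a calpain protease (8.73 and 8.63 against 11.43 and 11.35; -2.71 ± 0.31). Lzts1 (-2.63 ± 0.29), Ccnjl (-2.77 ± 0.36) and Tspan18, a tetraspanin (-2.77 ± 0.27), were lower as well. Against time 0 the label 4h differed by -1.88 ± 0.27 for Lgals1 (adjusted p = 9.29e-07), -0.59 ± 0.31 for Capn2 (adjusted p = 0.209) and 0.18 ± 0.29 for Lzts1 (adjusted p = 0.758). Ccnjl (-1.43 ± 0.36) and Tspan18 (-1.08 ± 0.27) were called lower than at time 0 and lost that call without replicate 2 labelled 4h (adjusted p = 0.215 and 0.0758). Ccnjl lost it also without replicate 2 of time 0 (0.0532), and Tspan18 after quantile normalization (-0.94).

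Higher at the label 4h than at the label 4d were Tsx (2.98 ± 0.47), Gfpt2 (2.89 ± 0.19, adjusted p = 8.03e-17), Car7 (2.88 ± 0.44) and Bbox1 (2.66 ± 0.25). Shc4, an adaptor of receptor kinases, read 11.60 and 11.41 at the label 4h, 8.96 and 8.83 at the label 4d (2.61 ± 0.35) and 9.50 and 9.60 at time 0. Ptk2b, a kinase of the focal adhesion family, read 11.32 and 11.38 at the label 4h, 8.81 and 8.76 at the label 4d (2.56 ± 0.38) and 10.40 and 10.64 at time 0. Against time 0 the label 4h differed by 1.95 ± 0.35 for Shc4 (adjusted p = 3.77e-05) and by 0.83 ± 0.38 for Ptk2b (adjusted p = 0.144).

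Along the other times, which share the arrays of time 0, the mitosis genes did not move steadily in the order of the labels. Ccnb2 read 11.24 and 11.33 at 12h, 10.40 and 10.14 at 24h, 8.27 and 8.47 at 48h, 8.91 and 9.57 at 6d, and 9.20 and 8.87 at 8d. For Ccnb2 the arrays labelled 4h (8.77 and 8.76) were near those of 48h to 8d, and those labelled 4d (11.10 and 11.51) near those of 12h. Not all members did so. Top2a read 8.75 and 8.94 at 48h, near the label 4h (8.92 and 8.84). It read 9.95 and 10.45 at 6d and 10.22 and 10.44 at 8d, nearer to the label 4d (10.44 and 10.62). Mki67 at 6d (10.02 and 10.55) was also nearer to the label 4d (10.41 and 10.45) than to the label 4h (9.06 and 8.96). Of the 25 mitosis genes, 2 fell at 12h (0.682% of all genes were lower), 17 at 24h (0.451%), 23 at 48h (1.00%), 15 at 6d (2.14%) and 15 at 8d (2.69%). If the labels 4h and 4d were exchanged, the counts in order of time would be 0, 2, 17, 23, 22, 15 and 15.

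The genes that rose took different courses over the other times. Car7 read 8.51 and 8.42 at 12h, 8.60 and 8.61 at 24h, 9.84 and 9.74 at 48h, 8.68 and 8.87 at the label 4d, 11.20 and 12.65 at 6d, and 11.45 and 11.88 at 8d. Bbox1 lay at 6.43 to 6.53 at 12h, 24h and the label 4d, at 6.81 and 7.00 at 48h, and at 10.20 and 10.85 at 6d, with both arrays of 8d above 10.20. Car7 and Bbox1 were thus high at the label 4h and at the late times. Gfpt2 was high at 12h too (11.02 and 11.28) and read 9.45 and 9.35 at 24h, and Tpbgl had already risen at 12h (2.11 ± 0.34) and was not called at the label 4d (0.74 ± 0.34). Sfn was called at 6d (8.68 and 8.30) but not at 8d (8.04 and 7.77). RA-induced targets were called higher for 5 of 20 at 12h, where 173 genes (0.868%) were higher than at time 0, and for 0 of 20 at 24h by limma (3 at an unadjusted p under 0.05; 0.0853% of all genes were higher). Late times held called targets as well: 1 of 20 at 48h (0.221% of all genes), 4 at 6d, with 1 lower (1.26%), and 6 at 8d (2.93%), as many as the 6 at the label 4d. Called RA targets were thus found at 12h, 48h, 6d, 8d and the label 4d. Rarb itself was not called at 6d (7.10 and 7.09) or 8d (6.93 and 6.98).

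Of the 679 genes called between 6d and time 0, a choice that did not use the levels at the labels 4h and 4d, 468 (68.9%) stood nearer to their level at 6d than at time 0 in the arrays labelled 4h. The share was 36.7% at 12h, 22.7% at 24h, 51.1% at 48h and 91.3% at 8d, and 24.2% for the label 4d. These shares describe the arrays and carry no test. By the median absolute difference over all 19938 genes, averaged over the 4 pairs of arrays, the arrays labelled 4h lay nearest to 48h (0.112) and 6d (0.134), and farther from the label 4d (0.153), 12h (0.155), 8d (0.174), time 0 (0.175) and 24h (0.211), with 0.062 between the 2 replicates. The arrays labelled 4d differed from each other by 0.127, and the ranges of their distances to the other times overlap. Pearson correlation ranked the other times differently for the arrays labelled 4h. It was highest with 48h (0.994), but 24h (0.986) lay above time 0 (0.983 to 0.985), the label 4d (0.982 to 0.984) and 12h (0.981 to 0.982). The values were not rescaled, so the median difference also takes in shifts of whole arrays. The 24h arrays had medians of 252.6 and 253.9 intensity units.

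**Figure D5:**
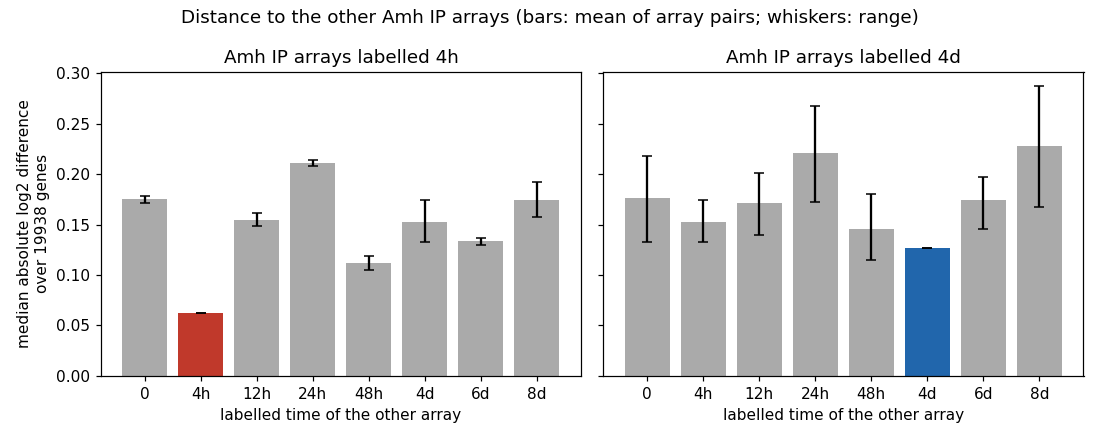
Median absolute log2 difference over 19938 genes between the Amh IP arrays labelled 4h (left) or 4d (right) and the Amh IP arrays of each labelled time; bars are means over the pairs of arrays, whiskers their range, and the coloured bar is the pair of replicates. At left the lowest bar apart from the replicates is 48h at 0.112, and at right the ranges overlap widely.

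In the germ cell lines the change labelled 4h looked different. In Stra8 IP RNA 46 genes (0.231%) and in Ngn3 IP RNA 56 (0.281%) were higher than at time 0, and of the 20 RA-induced targets 7 and 5 rose. Rarb rose by 2.21 ± 0.25 and 2.09 ± 0.25, and Cyp26a1 by 2.91 ± 0.43 and 3.76 ± 0.43. Of 25 mitosis genes limma called 0 in either line (0 and 2 at an unadjusted p under 0.05), with Ccnb2 at -0.03 ± 0.15 and -0.07 ± 0.15. Of the 26 genes that rose in both germ cell lines, 0 were called in the Amh arrays labelled 4h (median 0.17; 19 above 0), 2 in those labelled 4d (Cyp26a1 and Rarb; median 0.42), 3 in those labelled 12h (median 0.33), 0 at 24h and 48h (medians 0.11 and 0.10), 4 at 6d (median 0.33) and 9 at 8d (median 0.45).

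The difference between the Amh and Stra8 lines in the 4h change was tested directly, and 167 genes (0.838%) were higher and 372 (1.87%) lower in the Amh line. Of the mitosis list 23 of 25 genes and of the kinesins 9 of 11 were lower, and of the RA-induced targets 4 of 20. For Ccnb2 the changes were -3.24 in the Amh and -0.03 in the Stra8 line (difference -3.22 ± 0.22, limma adjusted p = 2.11e-15). For Rarb they were 0.13 and 2.21 (difference -2.08 ± 0.36, limma adjusted p = 6.73e-05). Most division genes and some RA targets thus changed differently between the lines under the same label.

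Total RNA of the whole testis gives a further view of the labels. In Amh total RNA labelled 4d, Cyp26a1 read 8.71 and 8.75 against 5.73 and 6.25 at time 0, and Stra8 9.81 and 9.72 against 6.88 and 7.51. Car7 was near time 0 there (8.60 and 8.44 against 8.23 and 8.38). The high RA targets of the label 4d were thus in both fractions of the line. In the Stra8 line at the label 4d, Rarb read 7.05 and 7.18 in IP and 6.97 and 7.29 in total RNA. Cyp26a1 read 6.43 and 6.45 in IP and 6.34 and 6.23 in total RNA there. Stra8 itself read 8.32 and 10.13 in that IP RNA, against 8.42 and 8.07 at time 0. Ngn3 total RNA labelled 4h read 8.49 and 8.49 for Rarb, 8.04 and 7.88 for Cyp26a1, and 8.45 and 8.63 for Car7. The 3 Stra8 total arrays labelled 4h differed among themselves: Rarb read 8.52, 6.98 and 6.99, Tpbgl 9.21, 11.50 and 11.03, and Car7 8.02, 10.72 and 9.96. In that group, too, an array held either high Rarb or high Tpbgl and Car7, and whether their labels hold was not tested.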

How the data were processed

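RNA was extracted with RNeasy columns, amplified with the Ovation V2 kit and hybridised to 1-colour gene arrays, per the labels' protocols. The authors deposited RMA intensity on a linear scale (RMA per the submitters' processing notes, with settings not given in the sources used here), and log2 of these deposited values was taken with no further scaling. Of 28853 probe sets, 5443 had no listed gene and 1621 several. Both kinds were left out, 99.6% of the rest matched by gene number, and the brightest probe set of a gene was kept (19938 genes). One limma 3.58.1 model (R 4.3.3) over all 77 arrays gave 35 group means, with an intensity trend. Called means Benjamini-Hochberg adjusted p under 0.05, two-sided, and at least 2-fold. Simulated data for Amh IP 4h against 0 (19938 genes) had independent normal noise for each gene around 1 mean for all groups. They held no batch and no correlation between genes. Of genes changed by 1.5 (log2), 48 of 50 were called, as were 50 of 50 changed by 2 and 50 of 50 changed by 3. Of genes changed by 0.585 (1.5-fold), below the 2-fold minimum, 0 of 50 were called, and 28 without that minimum. On this ideal noise 0 false calls arose, which does not carry over to real arrays.

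Members and the 29 gene lists were chosen with earlier results of these data known. Genes are named by rule. Per direction these are the 12 with the greatest called difference and no overlap between arrays (6 against the label 4d), leaving out predicted symbols. For the difference between lines they are the 4 with the greatest called difference, with no rule on overlap. Up to 6 called members of each list and fixed markers are added. Members of the RA lists could be named too, but Lrat, Aldh1a2 and Rbp4 are not among the 75 named genes put through the alternatives. Deviations of same-numbered arrays correlated at -0.06 (0 with 4h), -0.032 (0 with 4d) and 0.077 (4h with 4d), all under 0.1, so arrays were not paired. Alternatives changed the fold minimum, dim genes, scaling, probe sets, the intensity trend, the arrays fitted, a replicate block, each array left out, and the arrays labelled 4d in place of those labelled 4h. Chosen after seeing the data were a fit lacking the Amh arrays labelled 4d, a fit lacking the 3 arrays of narrowest range, and a crossed block. Arrays give no read depth, and 2 arrays a group limit the precision.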

Additional observations from a re-analysis of the deposited data

Results flagged for a closer look

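The change at the label 4h differed between the Amh and Stra8 IP arrays, by limma's test of the difference itself, for 12 of the genes named. Each value is the Amh change minus the Stra8 change on the log2 scale. Higher in the Amh line were Car7 (3.20 ± 0.62, adjusted p = 0.000338), Tpbgl (3.05 ± 0.48, adjusted p = 1.4e-05), Tsx (3.02 ± 0.66, adjusted p = 0.00163) and St8sia2 (2.85 ± 0.38, adjusted p = 5.93e-07). Of genes of dividing cells, Ccnb2 (-3.22 ± 0.22, adjusted p = 2.11e-15), Top2a (-2.06 ± 0.23, adjusted p = 8.22e-09), Mki67 (-2.46 ± 0.30, adjusted p = 6.64e-08) and Depdc1a (-3.43 ± 0.34, adjusted p = 8.58e-10) were lower in the Amh line, as was the scaffold protein gene Iqgap3 (-2.79 ± 0.31, adjusted p = 6.45e-09). Of the RA targets, Cyp26a1 (-2.52 ± 0.61, adjusted p = 0.00416), Rarb (-2.08 ± 0.36, adjusted p = 6.73e-05) and Stra8 (-2.00 ± 0.54, adjusted p = 0.0108) were lower there. The 12 are the 6 called of 22 genes set by name, with the 4 called genes of greatest difference in each direction, which overlap in Ccnb2 and Cyp26a1. The comparison takes the label 4h as given in both lines, and whether it holds in the Amh line was not tested.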

How the results depend on the processing

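With the arrays labelled 4d in place of those labelled 4h, 188 genes were called against time 0, 91 of them lower, with 0 mitosis and kinesin genes lower and 6 RA-induced targets higher. Without the 2-fold minimum the counts were 3047 for 4h against 0 (1655 higher, 1392 lower), 2645 for 4h against 4d, 1957 for 4d against 0 and 2052 for the difference from the Stra8 line. Under the other alternatives run, each count stayed within 1.5 times its main value. The mitosis and kinesin count was 29 after quantile normalization and 31 with each array left out. Leaving out 1 array gave 89 to 144 genes higher and 250 to 267 lower at the label 4h. The replicate numbers do not pair the samples, and with the number as a block 125 genes were higher and 262 lower, 31 mitosis and kinesin genes were lower, and no call of a named gene changed. The Stra8 IP arrays of 0 and 4h correlated at -0.169 by number, and the crossed block gave 537 calls for the difference between lines against 539. No called value reversed. Over 972 comparisons of 75 named genes with an alternative, 940 kept the main call status, 25 lost a call and 7 gained one, and 61 genes kept theirs throughout. RMA compresses low intensities, so differences of dim genes such as Rarb and Cyp26a1 may be understated.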
